A study of Mus musculus with 8 samples.

Results

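The sites described here were open chromatin regions of mouse 3134 cells that were listed in every DNase-seq library of 3 cell lines and in neither library of a line carrying dominant-negative Snf2h. Hotspots, the stretches of the genome called as enriched in DNase I cuts, were merged across 8 libraries wherever they overlapped by at least 1 bp, which gave 99999 sites. Of these, 20290 were listed in all 6 libraries of the parental, DNBrg1 and DNCHD4 lines. Of the 20290, 4285 (21.1%) were missing from both DNSnf2h lists, and these 4285 are the sites described below. A further 1370 (6.75%) were listed in DNSnf2h cells only with tetracycline, 2043 (10.1%) only without it, and 12592 (62.1%) in both, which made them sites of all 8 libraries. The sites were chosen by their listing in all 8 libraries, so these counts are a description. "Missing" means not listed: each list starts at its own density threshold, so a missing site is not a site without cuts.

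The 3134 line is a mouse mammary epithelial line. Each of 4 lines was measured once after 48 hours in medium with tetracycline and once after 48 hours without it, in charcoal-stripped serum, so there was 1 library per group, no replicate check and no p-value. The DNSnf2h line carried a FLAG-tagged human SNF2H with a lysine-to-arginine change, and the DNCHD4 line a FLAG-tagged mouse Chd4 with a lysine-to-cysteine change. Both were introduced by a retroviral vector into 3134 cells that hold the tetracycline transactivator, and tetracycline keeps the protein off. The labels call the DNBrg1 line dominant-negative for Brg1 without describing its construct, and they do not say whether any line is a single clone or whether the parental samples hold the transactivator. Lines therefore differ from the parental line by more than the induced protein, and with 1 library each, line and library cannot be told apart. The deposited names number the 2 DNSnf2h libraries 247 and 248 and the other 6 between 83 and 90. No source used here says what these numbers record.

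Snf2h is the ATPase of the ISWI remodelers, which slide nucleosomes into evenly spaced arrays and are known for keeping nucleosomes phased around bound CTCF. Brg1 drives the SWI/SNF complexes, which push or eject nucleosomes at enhancers and promoters. Chd4 is the ATPase of NuRD, which pairs remodeling with histone deacetylation and is best known for limiting access to regulatory DNA. A dominant-negative ATPase can still enter its complex but hydrolyses ATP poorly, so it acts against the endogenous enzyme.

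The missing sites were mostly weak sites in the lines that listed them. Strength was read as MaxD, the highest tag density within a hotspot as deposited, on a scale on which 1 sequenced tag was worth a density of 0.179 to 0.586 depending on the library. In parental cells the median MaxD of the 4285 sites was 27.0 with tetracycline (quartiles 20.2 and 37.5, highest 147) and 19.8 without it (15.2 and 27.0, highest 95.8). In DNBrg1 cells it was 29.9 with (22.8 and 40.4, highest 197) and 18.9 without tetracycline (14.5 and 25.3, highest 155). In DNCHD4 cells it was 24.7 with (18.4 and 33.8, highest 108) and 30.6 without tetracycline (21.7 and 43.1, highest 225). DNCHD4 cells without tetracycline were the only library of the 6 in which the median lay above that of the same line with tetracycline. The medians were 27.1% to 40.4% of those of the sites listed in all 8 libraries, and the quartile ranges of the 2 classes overlapped only in DNBrg1 cells without tetracycline. In tags, the median site rested on 51 in DNBrg1 cells with tetracycline and on up to 156 in DNCHD4 cells without it.

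**Figure D1:**
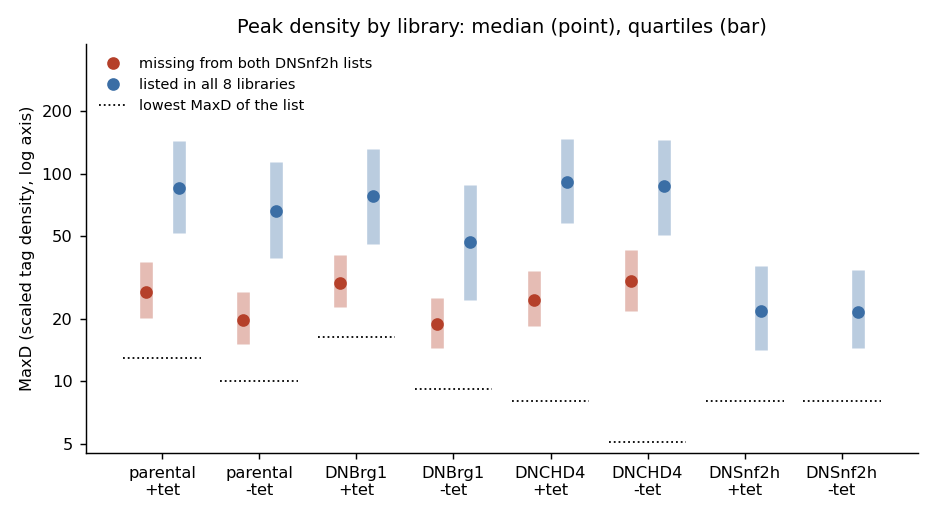
Median (point) and quartiles (bar) of MaxD on a log axis in each library, for the 4285 sites missing from both DNSnf2h lists (red) and the 12592 sites listed in all 8 (blue); dotted lines mark the lowest MaxD of each list. The missing sites have medians of 18.9 to 30.6 in the 6 libraries that list them, and the sites of all 8 libraries have medians of 21.8 and 21.6 in the DNSnf2h libraries.

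The densities of the DNSnf2h libraries themselves were low. At the sites listed in all 8 libraries the median MaxD was 21.8 and 21.6 in DNSnf2h cells with and without tetracycline, against 46.7 to 91.2 in the other 6. Among the 6481 of them with a strength of 70 or above, MaxD was at the median 5.13-fold lower in DNSnf2h than in parental cells with tetracycline and 3.64-fold lower without it. Both DNSnf2h lists began at a similar MaxD, 8.03 and 8.06. Lowering every missing site's parental MaxD by that median fold would leave 845 sites (19.7%) with tetracycline and 856 (19.98%) without it above the start of the DNSnf2h list. With each of the 6 libraries lowered by its own median fold (2.96 to 5.13), 331 sites (7.72%) would remain above that start in all 6. These counts were made for the missing sites only, so no share of other sites stands beside them. The part of this library-wide difference in the absence of the sites was not tested.

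The share of sites missing went down with strength. Strength was taken here as the geometric mean of MaxD over the 6 libraries that listed the site, which was 24.3 at the median of the missing sites (11.7 to 99.8) and 72.3 at the median of the sites in all 8. Of the sites with a strength under 20, 1255 of 1805 were missing from both DNSnf2h lists (69.5%, 95% Wilson interval 67.4% to 71.6%). The share was 45.6% (1734 of 3806) between 20 and 30, 23.7% (965 of 4069) between 30 and 45, and 7.80% (302 of 3874) between 45 and 70. At 70 and above it was 0.431% (29 of 6736, interval 0.300% to 0.618%). The share was thus lower at every step, and the intervals, which cover counting error only, did not overlap. In the same order, 10.5%, 27.0%, 50.1%, 73.8% and 96.2% of the sites were listed in both DNSnf2h libraries.

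**Figure D2:**
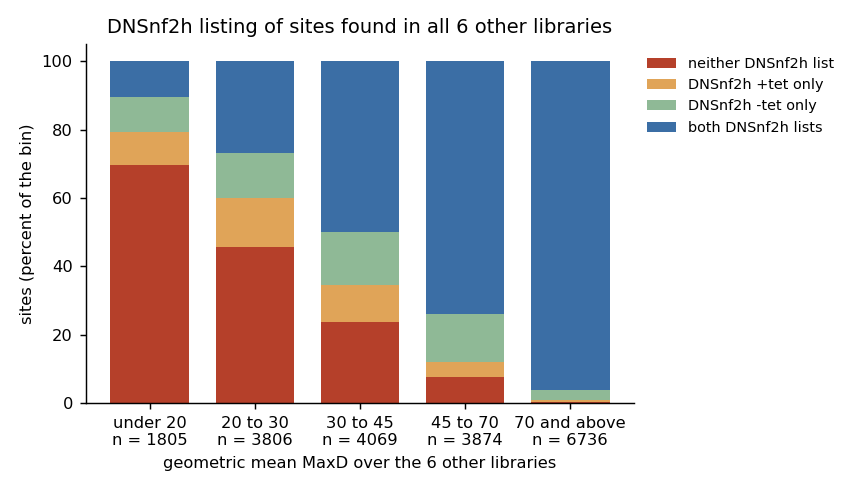
Percent of the sites listed in all 6 other libraries that were in neither, 1 or both DNSnf2h lists, by bin of the geometric mean MaxD over the 6 libraries; n is the number of sites in the bin. The share in neither list goes from 69.5% under 20 to 0.431% at 70 and above.

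Many of the missing sites were near the threshold of at least 1 of the 6 libraries that listed them. In 1071 of them (24.99%) MaxD was under 1.2 times the lowest value of its list in at least 1 of the 6 libraries, and in 1073 (25.0%) it was at least 2 times the lowest value in all 6. These 2 counts were not made for other sites. The median MaxD was 1.82 to 6.0 times the lowest of a list, against 4.75 to 17.1 times for sites of all 8 libraries. The library closest to its own threshold was DNBrg1 with tetracycline for 1643 sites (38.3%), parental without tetracycline for 980 and DNBrg1 without tetracycline for 887. It was parental with tetracycline for 742, DNCHD4 with tetracycline for 32 and DNCHD4 without it for 1. The 2 DNCHD4 lists, which are the longest, therefore seldom decided membership. Within a site, the highest of the 6 values was 2.19 times the lowest at the median (1.104 to 11.6).

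The 3 sites named as just inside the choice lie on chromosome 1 on build mm9, each at the lowest MaxD of 1 of the 6 lists. Missing sites on other chromosomes were tied with them, such as chr8:3516265-3517168 at 16.4 in DNBrg1 cells with tetracycline. The site chr1:59680064-59680690 had the lowest MaxD its parental list allows, 13.0, with tetracycline, and 17.8 without it. The sites chr1:82968539-82969355 and chr1:84558274-84558961 were at the same kind of limit, with 10.0 in parental cells without tetracycline and 13.0 in parental cells with tetracycline. Just outside, the limit is the lowest value of a DNSnf2h list. There chr1:22411958-22412724 was listed in DNSnf2h cells only without tetracycline, at 8.06, the lowest value of that list. The sites chr1:177810299-177811277 and chr11:6595067-6595757 were listed only with tetracycline, at 8.03. In the 6 other libraries these 3 outside sites ranged from 14.5 to 51.0, which is within the range of the missing sites.

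The 8 strongest missing sites, ranked by the lowest of their 6 values, stood far above every threshold. The highest in rank was chr5:139936172-139936907, a site of 736 bp, with a MaxD of 104 and 95.8 in parental cells with and without tetracycline. It had 101 and 75.5 in DNBrg1 cells and 108 and 120.0 in DNCHD4 cells. All 6 values lay within 75.5 to 120.0, so the site was about equally strong in every line that listed it. The DNSnf2h lists had their nearest hotspots 18.0 kb and 23.1 kb away.

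The next was chr5:124481980-124482723, with 88.4 and 82.4 in parental cells, 100.2 and 74.8 in DNBrg1 cells and 81.2 and 123 in DNCHD4 cells, with and without tetracycline in each pair. The third, chr1:88424267-88425664, had 66.7 and 62.8, then 71.5 and 86.7, then 78.7 and 113 in the same order. The fourth, chr6:146582328-146583426, had 75.02 and 70.3, 97.8 and 62.8, and 66.4 and 132. In these 3 sites DNCHD4 cells without tetracycline gave the highest of the 6 values, as they did at 1690 of the 4285 missing sites (39.4%). DNBrg1 cells with tetracycline gave it at nearly as many, 1601 (37.4%). These counts were made for the missing sites only. As deposited, DNCHD4 cells without tetracycline lay at a median log2 of 0.39 above parental cells without tetracycline, over all sites listed in both. At the third site, both DNSnf2h libraries listed a separate hotspot only 0.653 kb away, so DNase I signal in this neighbourhood was recorded in DNSnf2h cells.

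The site chr17:36115977-36117242 had 62.6 and 62.6 in parental cells, 83.2 and 67.6 in DNBrg1 cells and 73.5 and 73.8 in DNCHD4 cells. The site chr5:143874358-143875158 had 71.6 and 61.5, 96.1 and 88.0, and 69.95 and 118 in that order. The site chr17:46435259-46436080 had 72.2 and 60.2, 80.9 and 57.7, and 62.1 and 71.5. The 2 sites of chromosome 17 differed little between DNCHD4 libraries, while the site of chromosome 5 was again highest in DNCHD4 cells without tetracycline. The remaining site, chr4:83131396-83132959, spanned 1564 bp and was the most variable of the 8. It had 61.7 and 87.0 in parental cells, 116 and 87.5 in DNBrg1 cells, and 58.5 and 225 in DNCHD4 cells, where 225 is the highest value of any missing site in any library.

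Parental MaxD at these 8 sites was 7.68 to 13.0 times the lowest DNSnf2h value with tetracycline and 7.47 to 11.9 times without it, which are descriptions of sites chosen for their strength. The nearest DNSnf2h hotspot was between 0.653 kb and 45.7 kb away. None of the 8 had a gap in the numbering of the DNSnf2h hotspots at its position. Such gaps matter because each list is numbered in genome order with numbers left out, which shows that some hotspots were removed after numbering. Over all 4285 sites, a number was missing at the position in the list with tetracycline for 816 (19.0%), in the list without it for 791 (18.5%), and in either for 1157 (27.0%). Over all intervals between neighbouring DNSnf2h hotspots the shares were 9.06% and 14.3%. These count each interval once whatever its length, so they are not like for like with shares of sites. For these 1157 sites a removed hotspot and an uncalled one cannot be told apart. Gaps were found at 35.3% of the missing sites with a strength under 20 and at 0 of the 29 at 70 and above.

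**Figure D3:**
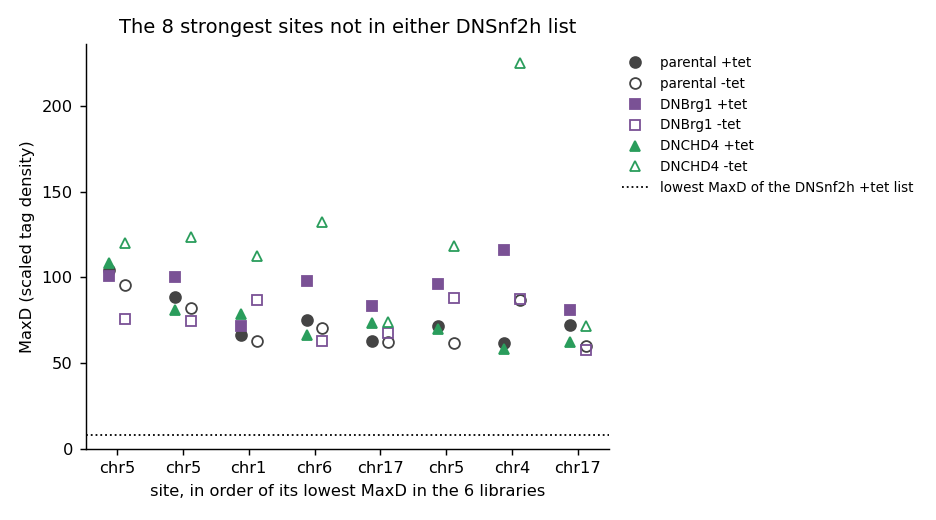
MaxD of the 8 strongest missing sites in the 6 libraries that list them, in order of their lowest value; filled symbols are with and open symbols without tetracycline, and the dotted line marks the lowest MaxD of the DNSnf2h list with tetracycline (8.03). Every value lies at 57.7 or above, and the open triangle at 225 is the site of chromosome 4 in DNCHD4 cells without tetracycline.

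The change on tetracycline removal in the 3 other lines was not used to choose the sites, apart from the need to be listed in both libraries of each line. It was taken as the log2 ratio of MaxD without over with tetracycline. Because the target of the authors' scaling is not given, each ratio was centred by subtracting the median over all sites listed in both libraries of the line. That median was -0.40 in the parental, -0.64 in the DNBrg1 and 0.03 in the DNCHD4 line. As deposited, the medians of the missing sites were -0.44, -0.65 and 0.28.

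After centring, the missing sites moved little in the parental and DNBrg1 lines and were higher without tetracycline in DNCHD4 cells. The median centred log2 ratio was -0.04 in the parental line (quartiles -0.30 and 0.22), -0.01 in the DNBrg1 line (-0.31 and 0.28) and 0.25 in the DNCHD4 line (-0.08 and 0.59). The sites of all 8 libraries had medians of 0.04, 0.02 and -0.07. In DNCHD4 cells the missing sites thus stood 0.32 above the sites of all 8 libraries on the log2 scale, and 69.2% of them against 44.2% had a ratio above 0. Within single sites, the DNCHD4 ratio exceeded the parental ratio at 3036 of the 4285 missing sites (70.9%) and at 36.9% of the sites of all 8 libraries. It exceeded the DNBrg1 ratio at 2889 (67.4%) and 42.8%. The quartile ranges of the 2 classes overlapped in every line.

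The DNCHD4 difference was present at every strength. From the weakest to the strongest of the 5 bins, the missing sites had median centred log2 ratios of 0.18, 0.27, 0.27, 0.30 and 0.32. The sites of all 8 libraries in the same bins had -0.41, -0.38, -0.27, -0.10 and 0.01. The difference was 0.60, 0.65, 0.55, 0.40 and 0.31; at matched strength it was thus up to 0.65, against 0.32 without matching. With bins made from the 2 parental libraries alone, a choice made after seeing the data, it was 0.58, 0.57, 0.51, 0.37 and 0.12, the last over 31 missing sites. In the parental line the missing sites had 0.03, -0.05, -0.08, -0.12 and -0.11, and in the DNBrg1 line 0.02, 0.00, -0.03, -0.09 and 0.07, by bins over the 6 libraries.

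**Figure D4:**
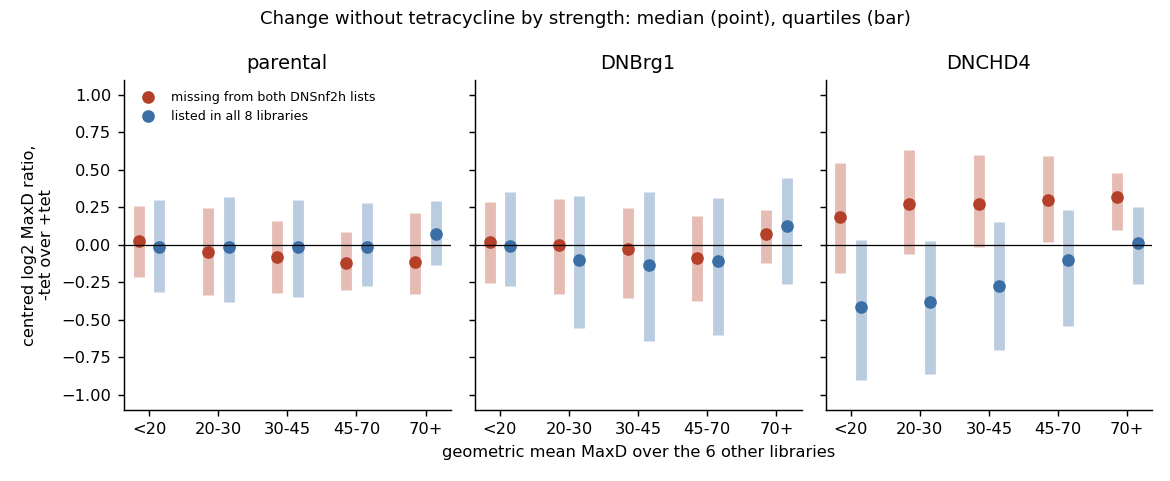
Centred log2 ratio of MaxD without over with tetracycline in the parental, DNBrg1 and DNCHD4 lines, by bin of the geometric mean MaxD over the 6 libraries; points are medians and bars quartiles over sites, missing sites in red and sites of all 8 libraries in blue. In the DNCHD4 panel the red medians lie between 0.18 and 0.32, and the blue ones go from -0.41 to 0.01.

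Both DNCHD4 libraries contributed. Set against the parental library of the same tetracycline state and centred in the same way, the missing sites were at a median log2 of -0.20 in DNCHD4 cells with tetracycline and 0.19 without it. The sites of all 8 libraries were at 0.05 and -0.04. The missing sites therefore started lower in DNCHD4 cells that still received tetracycline and stood higher once it was removed. In DNBrg1 cells they were at 0.16 with and 0.17 without tetracycline, against -0.09 and -0.13 for the sites of all 8 libraries, so the offset from the parental line was about the same in both states. These sets share the parental libraries.

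Sites listed in 1 of the DNSnf2h libraries are the nearest classes for comparison. In DNCHD4 cells the sites listed in DNSnf2h cells only without tetracycline had a median centred log2 ratio of 0.28, close to the 0.25 of the missing sites. Those listed only with tetracycline had -0.17. Over all strengths, the DNCHD4 ratio was therefore on the higher side for both classes not listed in DNSnf2h cells with tetracycline, and on the lower side for both classes listed there. At a strength of 70 and above, the classes listed there were not below 0. The medians were 0.01 for sites of all 8 libraries and 0.17 for the 32 sites listed only with tetracycline. For the sites listed only without and only with tetracycline, the parental medians were -0.01 and -0.13, and the DNBrg1 medians -0.01 and -0.15. Within single sites, the DNCHD4 ratio exceeded the parental ratio at 73.7% and 45.7% of these 2 classes, in the same order. It exceeded the DNBrg1 ratio at 69.8% and 47.9%.

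A centred change of at least 2-fold was then counted. In the DNCHD4 line 344 missing sites were at least 2-fold higher without tetracycline (8.03%, Wilson interval 7.25% to 8.88%), where 5.38% of all sites listed in both DNCHD4 libraries were. Lower by at least 2-fold were 45 sites (1.05%), against 8.51% of all sites. Of the sites in all 8 libraries 192 (1.52%) were higher and 985 (7.82%) lower. The missing sites thus divided 344 to 45 and the sites of all 8 libraries 192 to 985. As deposited, without centring, the counts of missing sites were 387 and 35, against 5.93% and 7.87% of all sites. At 1.5-fold, 1095 missing sites were higher (25.6%, against 15.5%) and 208 lower (4.85%, against 19.5%), so the excess of higher sites did not rest on the 2-fold limit.

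In the parental line 22 missing sites were at least 2-fold higher (0.513%, against 2.09% of all sites listed in both parental libraries) and 28 lower (0.653%, against 1.82%). In the DNBrg1 line 62 were higher (1.45%, against 2.81%) and 117 lower (2.73%, against 6.96%). All 4 shares lay under their background. At 1.5-fold the parental shares were 5.95% higher and 7.47% lower (8.95% and 9.05% of all sites) and the DNBrg1 shares 8.87% and 11.1% (12.8% and 16.6%), again under the background. As deposited the parental counts at 2-fold were 2 and 306 (0.525% and 8.70% of all sites) and the DNBrg1 counts 0 and 958 (0.208% and 26.2%), so the split in these 2 lines depended on centring. A missing site had to stay listed in both libraries, which limits how much lower a weak site can be seen. The sites of all 8 libraries also had to stay listed but had more room, with a median MaxD of 4.75 to 17.1 times the lowest of a list against 1.82 to 6.0 times for the missing sites.

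The same calls were therefore set side by side within the bins of strength. From the weakest to the strongest bin, 6.93%, 9.05%, 7.77%, 7.62% and 6.90% of the missing sites were at least 2-fold higher in DNCHD4 cells, against 1.06%, 2.24%, 2.41%, 2.31% and 0.802% of the sites of all 8 libraries. At least 2-fold lower were 2.07%, 1.096%, 0%, 0% and 0%, against 22.2%, 19.2%, 12.8%, 9.69% and 3.22%. In the parental and DNBrg1 lines the missing sites had the smaller share in all 5 bins and in both directions. The strongest bin holds 29 missing sites. Calls by bin were not made for the sites listed in 1 of the DNSnf2h libraries.

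Most missing sites, 3709 of 4285 (86.6%), changed by under 2-fold in all 3 lines. Another 535 changed in 1 line, 40 in 2 lines and 1 in all 3. These counts over lines were made for the missing sites only, so they have no share of other sites beside them. Of the 344 sites higher in DNCHD4 cells, 11 were also at least 2-fold higher in the parental line and 11 in the DNBrg1 line. Of all missing sites, 0.513% and 1.45% were. The median centred log2 ratio of the 344 was 0.27 in the parental line, where 254 were above 0, and 0.13 in the DNBrg1 line, where 212 were. Of all missing sites, 46.2% were above 0 in the parental line and 49.1% in the DNBrg1 line. The median MaxD of the 344 in DNCHD4 cells was 18.8 with and 47.9 without tetracycline, while the parental medians were 22.5 and 21.6. Across the 4285 sites the ratios of 2 lines were correlated with a Pearson r of 0.31 (parental and DNBrg1), 0.30 (parental and DNCHD4) and 0.19 (DNBrg1 and DNCHD4), with Spearman rho of 0.28, 0.25 and 0.17. Over the 12592 sites of all 8 libraries r was 0.51, 0.53 and 0.49. Each line has its own pair of libraries, and the values describe sites, which are not replicates.

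The missing sites with the highest ratios in DNCHD4 cells had 92.4 to 121 in that line without tetracycline and 42.7 or less in the other 5 libraries. The site chr2:34760064-34761183 had a MaxD of 10.4 with and 121 without tetracycline in DNCHD4 cells, a centred ratio of 11.4-fold (95% exact binomial interval on tags 8.69 to 15.2). In parental cells it had 16.7 and 42.7 and in DNBrg1 cells 32.2 and 24.0, and its 3.38-fold centred ratio in the parental line was also the highest there. This site has 1 number missing at its position in each DNSnf2h list. The site chr3:94175408-94176247 had 11.1 and 104 in DNCHD4 cells (9.18-fold, 7.05 to 12.1), with 14.6 and 25.7 in parental and 25.8 and 15.8 in DNBrg1 cells. The site chr3:89676003-89677159 had 11.6 and 92.4 in DNCHD4 cells (7.77-fold, 5.98 to 10.2), with 15.5 and 27.5 in parental and 22.8 and 33.2 in DNBrg1 cells. The parental ratios of these last 2 sites were 2.34-fold and 2.35-fold higher without tetracycline.

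The lowest ratios in DNCHD4 cells were smaller in size. The site chr5:17225717-17226409 went from 19.9 with to 6.07 without tetracycline (3.35-fold lower, 2.23 to 5.16), and chr6:38084559-38085365 from 44.2 to 13.5 (3.35-fold lower, 2.55 to 4.44). The site chr8:10993500-10994391 went from 30.4 to 9.60 (3.24-fold lower, 2.35 to 4.55). The second of these was also 2.12-fold lower in the DNBrg1 line. Each of the 3 had at least 1 number missing at its position in one of the DNSnf2h lists.

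In DNBrg1 cells the largest change among the missing sites was toward lower density. The site chr13:49273971-49274758 had a MaxD of 128 with and 15.3 without tetracycline, a centred ratio 5.36-fold lower (4.01 to 7.26), while the other 4 libraries gave 20.1 to 38.4. The value in DNBrg1 cells with tetracycline thus stood apart from the other 5 at this site. The site chr11:100150089-100150838 had 74.4 and 10.7 (4.44-fold lower, 3.11 to 6.46), with a DNSnf2h hotspot 0.315 kb away in the list with tetracycline. The site chr12:70575754-70576522 had 95.5 and 14.3 (4.28-fold lower, 3.14 to 5.90) and was also 2.38-fold lower in DNCHD4 cells. At chr12:70575754-70576522 the parental values were 20.8 and 11.3, again under the DNBrg1 value with tetracycline.

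The highest DNBrg1 ratios were 2.95-fold at chr1:132993178-132994040, from 19.3 to 36.5 (2.01 to 4.45), 2.94-fold at chr9:75626467-75627111, from 18.7 to 35.2 (1.99 to 4.46), and 2.89-fold at chr8:3516265-3517168, from 16.4 to 30.4 (1.90 to 4.54). Each began within 28 to 33 tags, near the threshold of that list. The first lay 0.101 kb from a DNSnf2h hotspot in the list without tetracycline.

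In parental cells, for which the labels name no dominant-negative protein, chr7:123717870-123718934 had 15.2 and 33.0 (2.87-fold higher, 2.05 to 4.07) and chr17:13671619-13672321 had 17.1 and 31.7 (2.46-fold higher, 1.77 to 3.44). Both were higher in DNCHD4 cells too, by 3.04-fold and 4.13-fold. The lowest parental ratios were 3.22-fold lower at chr4:9024050-9024755, from 53.6 to 12.6 (2.33 to 4.51), 2.66-fold at chr6:119345980-119346759, from 47.1 to 13.4 (1.93 to 3.72), and 2.53-fold at chr11:102638644-102639335, from 39.7 to 11.8 (1.80 to 3.63). All 3 were also lower in DNBrg1 cells, by 2.52-fold, 3.04-fold and 2.43-fold. In DNCHD4 cells the same 3 sites were 1.36-fold, 1.30-fold and 1.70-fold lower.

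At the weak end, chr13:54209060-54209645 had the lowest strength of all missing sites, with values of 8.23 to 16.99 in the 6 libraries. The next were chr12:57159333-57159925, with 10.0 to 17.4, and chr3:16366236-16366967, with 5.88 to 17.4. These sites rested on 28 to 97 tags in each library. The intervals of their parental and DNBrg1 ratios all contained 1, and of their DNCHD4 ratios only that of chr3:16366236-16366967 did not (3.02-fold lower, 1.99 to 4.72).

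The missing sites were also narrower and flatter than sites of all 8 libraries in the same bin of strength. Hotspot width was 609 bp at the median over the 6 libraries, against 848 bp in the sites of all 8. By strength bin the widths were 557, 606, 667, 729 and 766 bp, against 593, 646, 715, 791 and 954 bp. The ratio of AveD, the mean density of a hotspot, to MaxD is high where a profile is flat. Its median was 0.331, 0.323, 0.306, 0.295 and 0.272 in the missing sites and 0.297, 0.285, 0.278, 0.274 and 0.255 in the sites of all 8. The quartile ranges overlapped in each bin for both measures. The sites listed in DNSnf2h cells only with tetracycline were narrower and flatter than the missing sites in the top 2 bins, with widths of 715 and 743 bp and ratios of 0.300 and 0.312, the last of each over 32 sites. A single hotspot in each of the 6 libraries made up 94.1% of the missing sites and 87.1% of the sites in all 8.

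**Figure D5:**
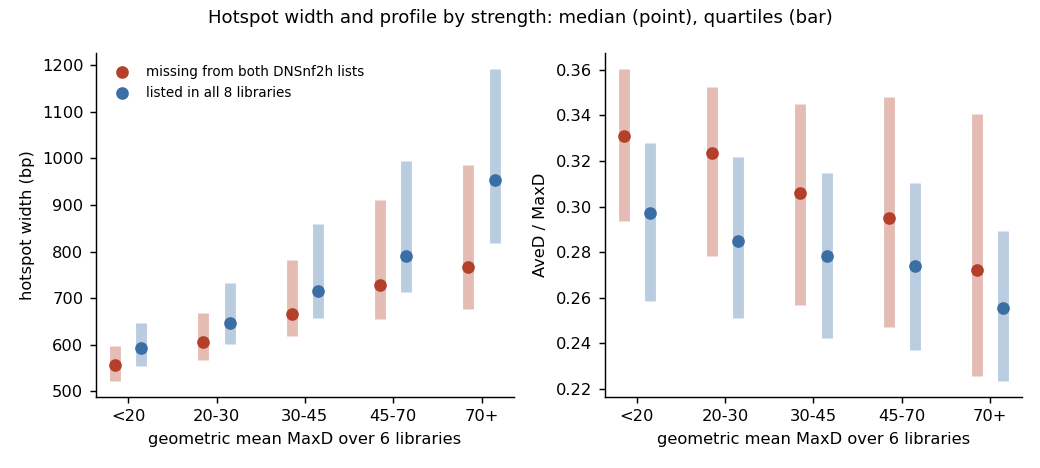
Hotspot width in bp (left) and AveD over MaxD (right) by bin of the geometric mean MaxD over the 6 libraries; points are medians and bars quartiles over sites, missing sites in red and sites of all 8 libraries in blue. In every bin the missing sites are narrower, from 557 to 766 bp, and have the higher AveD over MaxD, from 0.331 to 0.272.

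The missing sites were spread over the genome. Their share among the sites listed in the 6 libraries was lowest on chromosome 18 (14.4%, Wilson interval 11.5% to 18.0%) and chromosome 3 (16.0%, 13.9% to 18.3%). It was highest on chromosome 11 (24.6%, 22.5% to 26.8%) and chromosome 5 (25.3%, 23.0% to 27.7%). The median strength of all sites listed in the 6 libraries was similar on these chromosomes, 46.3, 47.7, 47.2 and 45.2. To the nearest other DNSnf2h site the median distance was 16.5 kb with and 13.1 kb without tetracycline, against 11.7 kb and 9.91 kb for the sites of all 8 libraries. It was 17.1 kb and 12.8 kb for the sites listed in DNSnf2h cells only without tetracycline, about as far as for the missing sites. For those listed only with tetracycline it was 11.6 kb and 10.3 kb. These medians are over all strengths. Within 500 bp of a DNSnf2h site lay 189 and 246 of the 4285 missing sites, counts that were not made for other sites.

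Most missing sites had listed neighbours. Among consecutive sites listed in the 6 libraries, the site after a missing one was also missing in 23.6% of cases, and the site after a listed one in 20.5%. Of the 4285 sites, 58.3% had no missing neighbour on either side. The longest runs held 6 missing sites in a row. On chromosome 7 a run from 31740583 to 31916355 (176 kb) had strengths of 16.0 to 33.3, and all 6 of its sites were higher without tetracycline in DNCHD4 cells, by a centred log2 of 0.10 to 1.08. On chromosome 8 a run from 106966087 to 107179399 (213 kb) had strengths of 18.7 to 37.3, and 5 of its 6 sites were higher in DNCHD4 cells, in a range of -0.20 to 0.70. Among all missing sites, 69.2% were above 0 in DNCHD4 cells. Each DNSnf2h list held 2 hotspots inside each run, at MaxD values between 8.06 and 9.52. DNSnf2h hotspots in these stretches were thus close to the threshold.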

How the data were processed

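DNase-seq was measured in 8 libraries, 1 per group, grouped by the submitters' labels. CASAVA 1.6 and build mm9 are named, per the submitters' processing notes, without further detail. No source used here names the program that called hotspots or its filters. For each library the authors deposited a list of hotspots, whose MaxD and AveD are, per the file headers, a signal (coverage density) scaled per library. All MaxD values were whole multiples of a step of 1 tag within 0.05 tags. Lists held 24890 to 78093 hotspots and began at a MaxD of 5.09 to 16.4. Total depth is unknown.

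Hotspots overlapping by at least 1 bp were merged, and a site took its highest MaxD in each library. Ratios were centred on all sites listed in both libraries of a line (28770 parental, 22627 DNBrg1, 40670 DNCHD4). Ratios carry exact binomial intervals on tags and shares carry Wilson intervals, both at 95%. They cover counting error only, because no molecular identifiers are recorded and reads may not be independent molecules. The script was tested on simulated data. Calculations used Python 3.11.15, pandas 2.3.3, numpy 2.4.6, matplotlib 3.10.9 and scipy 1.17.1.

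Named sites were the 8 with the highest lowest MaxD, the 3 highest and 3 lowest centred ratios per line and the 3 weakest. The 2 longest runs were named too, and 3 sites on each side of the listing thresholds, where sites inside were tied. Sites with 20 or more sites within 50 kb (30 of the missing sites) were counted but not named. Sites, bins and rules were chosen with earlier results of these data known. The reference gene and promoter tables are on another build than mm9 and were not used here, so no gene or sequence is given. Alternatives changed the overlap, threshold, libraries required, centring, density measure, fold and clusters.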

Additional observations from a re-analysis of the deposited data

Results flagged for a closer look

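The change of the missing sites on tetracycline removal differed between lines. Their median centred log2 ratio was 0.25 in DNCHD4 cells and -0.04 in parental cells, a difference of 0.29. Against the -0.01 of DNBrg1 cells the difference was 0.26. With 1 library per group, neither difference was tested.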

How the results depend on the processing

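No paired analysis was possible because every change given here is that of 1 line with 1 library per state, and the titles' numbers 1 and 2 stand for with and without tetracycline. A tetracycline effect common to the lines, with the line as a block, is another question and was not fitted. Of 116 alternative values, 82 were classed as the same as the reported value and 34 as moved. For log2 ratios the first class was wide. It held the parental median of -0.44 as deposited, against -0.04 after centring. It also held differences from the sites of all 8 libraries of -0.27 to 0.04 in the parental and 0.12 to 0.65 in the DNCHD4 line. The number of missing sites was 2049 with all 6 lists cut at the highest of their lowest MaxD (16.4) and 7311 without requiring the DNBrg1 line; 3128 to 5393 were found under the other alternatives. With AveD in place of MaxD the medians were 8.54 and 6.14 in parental, 9.74 and 5.71 in DNBrg1 and 7.47 and 8.99 in DNCHD4 cells, with and without tetracycline. After the cut they were 36.3 and 26.3 in parental and 32.7 and 41.1 in DNCHD4 cells, and 24.5 in DNBrg1 cells without tetracycline. The DNBrg1 median log2 ratio was -0.65 as deposited.

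Of the counts of sites past 2-fold, the DNCHD4 ones were within 1.5 times the reported value as deposited (387 higher, 35 lower) and for higher sites from AveD (354), as were the higher DNBrg1 sites from AveD (74). The others moved, the cut leaving fewer sites by construction. As deposited, 2 parental sites were higher and 306 lower, and 0 DNBrg1 sites higher and 958 lower. At 1.5-fold the higher and lower counts were 255 and 320 (parental), 380 and 475 (DNBrg1) and 1095 and 208 (DNCHD4). After the cut they were 7 and 4, 20 and 37, and 155 and 2. From AveD, 45 parental sites were higher and 83 lower, 190 DNBrg1 sites lower and 68 DNCHD4 sites lower; the cause was not tested. The DNCHD4 difference between missing sites and sites of all 8 libraries was above 0 under all 15 alternatives, each chosen after seeing the data (0.12 to 0.65); the parental (-0.27 to 0.04) and DNBrg1 differences (-0.18 to 0.10) took both signs. The few tags of weak sites, 28 at the least in the DNBrg1 list with tetracycline, limit single ratios to within about the intervals given.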

Other observations

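Among the 502 windows of 1 Mb with at least 15 sites listed in the 6 libraries, the missing share had a median of 22.2% and ran from 0% in 8 windows to 50% in 4. The 4 lay on chromosome 1 (181 to 182 Mb, 8 of 16 sites), chromosome 2 (180 to 181 Mb, 8 of 16), chromosome 5 (122 to 123 Mb, 14 of 28) and chromosome 7 (88 to 89 Mb, 8 of 16). They were chosen after their values were seen. Between 34 and 37 Mb of chromosome 17, around the site at 36115977 named among the strongest, 22 of 94 sites (23.4%) were missing.

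Of the missing sites, 5 had a MaxD at least 2-fold above the level at which the median difference of strong sites would bring them to the start of the DNSnf2h list, in all 6 comparisons at once. This count was not made for other sites. In DNCHD4 cells 4 of the 5 were higher without tetracycline (centred log2 -0.04 to 0.43), in DNBrg1 cells 2 of 5 (-0.17 to 0.23) and in parental cells 1 of 5 (-0.40 to 0.28). Among all missing sites the shares above 0 were 69.2%, 49.1% and 46.2%, in the same order. None of the 5 changed by 2-fold in any of the 3 lines, and none had a missing hotspot number.

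The 117 missing sites that were at least 2-fold lower in DNBrg1 cells had a median MaxD of 49.8 with and 13.5 without tetracycline, and 33.8 and 19.3 in parental cells. Their median centred log2 ratio was -0.29 in the parental line, where 28 were above 0, and -0.08 in the DNCHD4 line, where 56 were. The 62 at least 2-fold higher in DNBrg1 cells had medians of 0.39 in the parental line, where 52 were above 0, and 0.44 in the DNCHD4 line, where 53 were. Of all missing sites, 46.2% were above 0 in the parental line and 69.2% in the DNCHD4 line.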
